A study of Arabidopsis with 12 samples.

Results

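The genes described here make auxin from tryptophan in Arabidopsis thaliana. They are 8 of the 32833 genes in the deposited table, taken by locus identifier: the aminotransferase genes TAA1 (AT1G70560) and TAR2 (AT4G24670), and the YUCCA genes YUC2 (AT4G13260), YUC3 (AT1G04610), YUC5 (AT5G43890), YUC6 (AT5G25620), YUC8 (AT4G28720) and YUC9 (AT1G04180). All 8 passed the filter on low values, a level of at least 1 TPM (length-scaled transcript abundance as a part of a fixed library total) in at least 3 libraries. None of the 8 overlaps another gene in the RefSeq table of assembly TAIR10.1.

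Messenger RNA was sequenced from leaf portions of seedlings grown for 10 days in white light and then shaded for 6 h (R/FR of 0.17) in liquid medium with 30 mM of a sugar or sugar alcohol. The 12 libraries form 4 groups of 3: phyA-211, a phytochrome A mutant, with sucrose; phyA-211 with sorbitol; wild-type Col-0 with sucrose; and Col-0 with sorbitol. Sorbitol is commonly used as an osmotic control for sucrose. Every group was shaded, so no comparison measures shade itself. Nothing in the labels says that replicates were separate cultures, so each p-value reflects only library-to-library spread, which may be technical.

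Auxin synthesis from tryptophan runs in a pair of steps. TAA1 and its relative TAR2 remove the amino group of tryptophan to give indole-3-pyruvate, and the YUCCA flavin monooxygenases convert indole-3-pyruvate into indole-3-acetic acid, the main auxin. In Arabidopsis seedlings under shade, TAA1 is needed for the extra auxin that drives stem growth, several YUCCA genes are induced through PIF transcription factors, and phytochrome A limits the growth response when far-red light is abundant.

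The libraries followed their genotype labels. PHYA averaged 42.3 ± 4.25 TPM in phyA-211 with sucrose and 36.2 ± 4.56 TPM in phyA-211 with sorbitol, against 279 ± 60.7 TPM in Col-0 with sucrose and 362 ± 20.7 TPM in Col-0 with sorbitol (SD, n = 3 each). Leaf markers dominated: the sum of 5 of them (CAB1, RBCS1A, CA1, LHCB2.1 and RCA) was lowest in replicate 3 of phyA-211 with sucrose, a library that stood apart at 21422 TPM, and lay between 34956 and 46515 TPM in the other 11. Root markers were also present. The sum of 7 of them, most of it from PYK10, was 877 to 1252 TPM in phyA-211 with sucrose, 822 to 1881 TPM in phyA-211 with sorbitol, 1256 to 1472 TPM in Col-0 with sucrose and 697 to 1189 TPM in Col-0 with sorbitol. The highest value, 1881 TPM, came from replicate 2 of phyA-211 with sorbitol. The 5 meristem markers summed to between 15.2 and 23.2 TPM, with CLV3 at 0 in 3 libraries and WUS at 0 in 7, and the 3 leaf margin markers (PUP1, CUC2 and CUC3) to between 1.7 and 4.83 TPM. In bulk tissue, fewer cells of a type and less RNA per cell cannot be told apart.

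YUC8 was by far the most abundant of these transcripts. Levels in TPM are scaled for transcript length and can be set side by side between genes. YUC8 averaged 40.4 TPM over the 12 libraries and exceeded TAA1, the next gene at 10.2 TPM, in 12 of 12. YUC2 followed at 9.22 TPM, TAR2 at 6.75 TPM and YUC9 at 6.11 TPM. YUC5, YUC6 and YUC3 were low, at 2.61, 2.52 and 2.21 TPM. Neighbours in this order mostly overlapped: TAA1 exceeded YUC2 in 8 of 12 libraries, TAR2 exceeded YUC9 in 7, and YUC5 exceeded YUC6 in 6. YUC9 exceeded YUC5 in 12 of 12.

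The order changed between groups in the ranks below YUC8. TAA1 ranked second with sucrose in both genotypes, with every library above every YUC2 library of its group. With sorbitol YUC2 ranked second in both genotypes. There TAA1 overlapped YUC2 in phyA-211 and lay below both YUC2 and TAR2 in Col-0, with overlapping ranges.

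The other YUCCA genes contributed little. YUC10 and YUC11 were listed at 0 in all 12 libraries, YUC7 reached at most 0.15 TPM and YUC1 at most 1.12 TPM. YUC4 averaged 1.11 TPM in phyA-211 with sucrose, 0.557 TPM in phyA-211 with sorbitol, 1.32 TPM in Col-0 with sucrose and 0.67 TPM in Col-0 with sorbitol. TAR1, a further aminotransferase gene, was listed above 0 in 1 library of phyA-211 with sorbitol, at 0.06 TPM. Of the summed TPM of the 11 YUCCA genes, YUC8 made up 61.2% to 63.7% in phyA-211 with sucrose, 63.8% to 67.4% in phyA-211 with sorbitol, 57.1% to 60.8% in Col-0 with sucrose and 61.1% to 67.0% in Col-0 with sorbitol. That sum was 75.7, 80.7 and 82.9 TPM in phyA-211 with sucrose and 58.0, 84.5 and 62.8 TPM in phyA-211 with sorbitol. In Col-0 it was 54.9, 51.6 and 48.6 TPM with sucrose and 62.3, 60.5 and 52.9 TPM with sorbitol. With sucrose the mutant sums lay above those of Col-0 without overlap, whereas with sorbitol the genotypes overlapped.

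**Figure D1:**
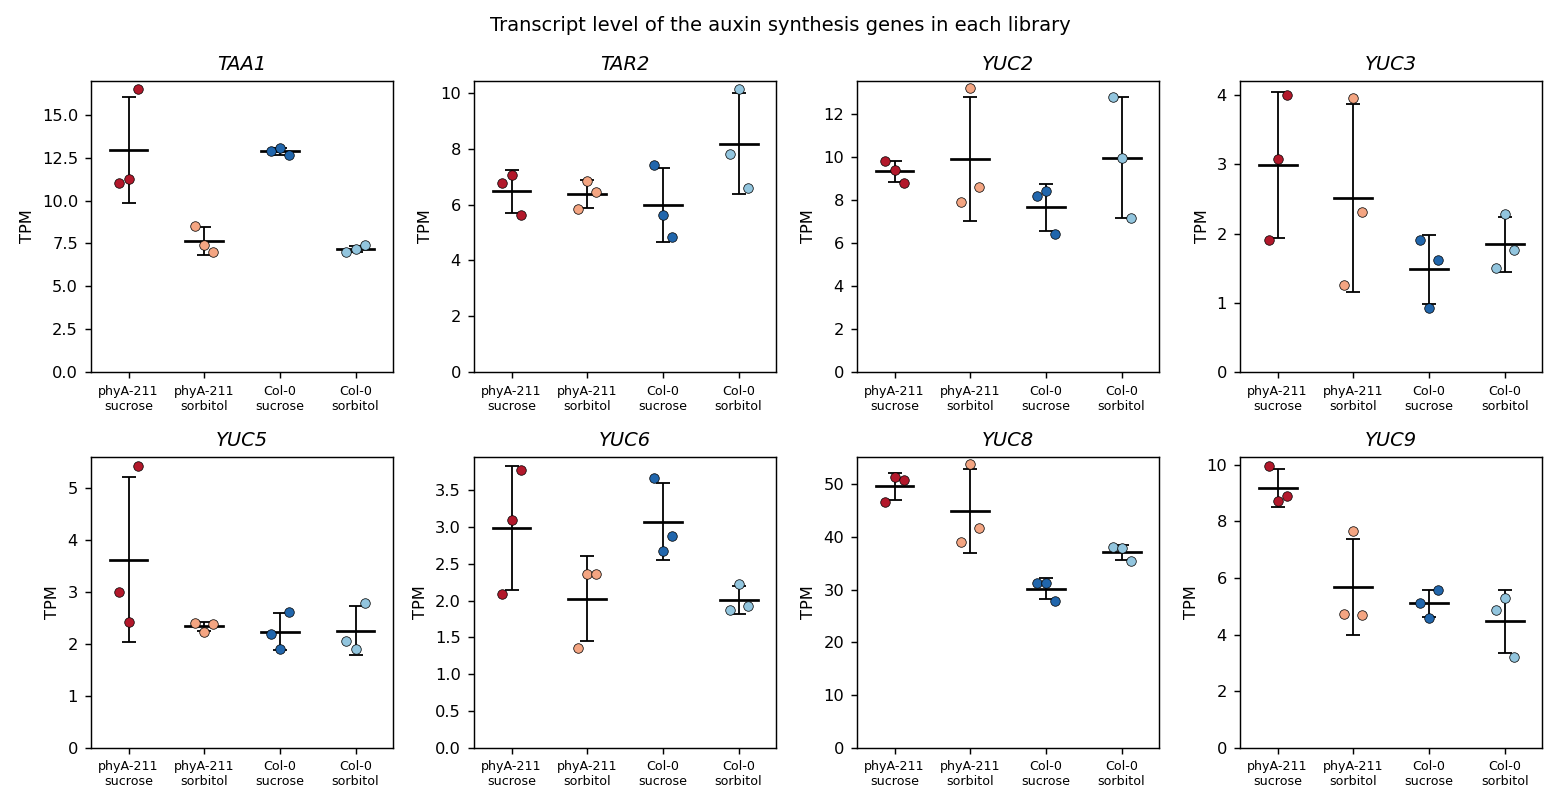
Transcript level in TPM (vertical axis, from 0, a separate scale per gene) of the 8 auxin synthesis genes in the 4 groups. Points are libraries, horizontal lines means and bars the SD over 3 libraries. TAA1 is higher with sucrose in both genotypes, YUC8 and YUC9 are highest in phyA-211 with sucrose apart from 1 phyA-211 sorbitol library for YUC8, and the other genes overlap between most groups.

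For the first step of the pathway, TAA1 was higher with sucrose than with sorbitol in both genotypes. In phyA-211, TAA1 stood at 11.0, 11.3 and 16.5 TPM with sucrose, against 8.53, 7.41 and 7.0 TPM with sorbitol. The Col-0 values were 12.9, 13.1 and 12.6 TPM with sucrose, against 7.0, 7.15 and 7.39 TPM with sorbitol. The sugar groups did not overlap in either genotype, and the Col-0 libraries were tightly grouped. On the log2(TPM + 1) scale the change was 0.67 in phyA-211 (SE 0.148, limma adjusted p = 0.00899) and 0.76 in Col-0 (SE 0.148, limma adjusted p = 0.00473). The sucrose mean was 169% of the sorbitol mean in phyA-211 and 179% in Col-0. In phyA-211 the change without the library that stood apart, sucrose replicate 3, was 0.49 (limma adjusted p = 0.0199).

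TAA1 was the only one of the 8 genes past the threshold (limma adjusted p under 0.05) for sucrose in Col-0, where 22.1% of all genes tested passed. It was 1 of 2, with YUC9, in phyA-211, where 27.5% passed. Neither count stands above its background share. Fitted on the phyA-211 libraries alone, TAA1 missed the threshold (limma adjusted p = 0.0556). In Col-0 the root marker sum and the meristem marker sum (17.0 to 22.6 TPM with sucrose, 15.2 to 15.7 TPM with sorbitol) were also higher with sucrose without overlap. Without PYK10 the root sums overlapped, at 39.1 to 60.4 TPM with sucrose and 31.8 to 50.7 TPM with sorbitol, and no gene of either list passed the limma test there. In phyA-211, 1 of 5 root markers tested passed, TIP2;3, which fell (-1.98, limma adjusted p = 0.0411). The others missed the threshold, at 0.61 for PHT1;1, 0.04 for PIN2, -0.01 for EXPA7 and -0.12 for PYK10. Of 2 margin markers tested, CUC2 rose (0.62, limma adjusted p = 0.047). PUP1 had the opposite sign and missed the threshold (-0.60, limma adjusted p = 0.0527). Their part in the result was not tested.

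TAA1 did not pass the test between genotypes. Its change was -0.02 for phyA-211 against Col-0 with sucrose (95% interval -0.34 to 0.31) and 0.08 with sorbitol (-0.25 to 0.40). The sucrose change in phyA-211 differed from that in Col-0 by -0.09 (interval -0.55 to 0.37, limma adjusted p = 0.999).

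TAR2 did not pass in any comparison. It stood at 6.76, 7.06 and 5.61 TPM in sucrose-treated phyA-211 and at 5.84, 6.86 and 6.45 TPM with sorbitol, overlapping ranges with a log2 change of 0.02 (interval -0.37 to 0.40). The Col-0 values were 7.43, 5.64 and 4.84 TPM with sucrose, against 7.82, 10.2 and 6.59 TPM with sorbitol. The Col-0 ranges overlapped and the change of -0.40 missed the threshold (SE 0.178, limma adjusted p = 0.134), though it passed after median-ratio scaling (-0.49, limma adjusted p = 0.0311) and quantile normalization (-0.48, limma adjusted p = 0.0406). It passed with library weights too (-0.54, limma adjusted p = 0.00311). Between genotypes the TAR2 estimate was 0.11 with sucrose and -0.30 with sorbitol, neither past the threshold. With library weights the sorbitol estimate passed (-0.40, limma adjusted p = 0.0332).

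The balance of the aminotransferase transcripts is given as a ratio of TPM values, with no test. TAA1 divided by TAR2 was 1.63, 1.60 and 2.94 in phyA-211 with sucrose, against 1.46, 1.08 and 1.09 with sorbitol. In Col-0 the ratio was 1.74, 2.32 and 2.61 with sucrose, against 0.895, 0.704 and 1.12 with sorbitol. Each sucrose library lay above each sorbitol library of its genotype.

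**Figure D2:**
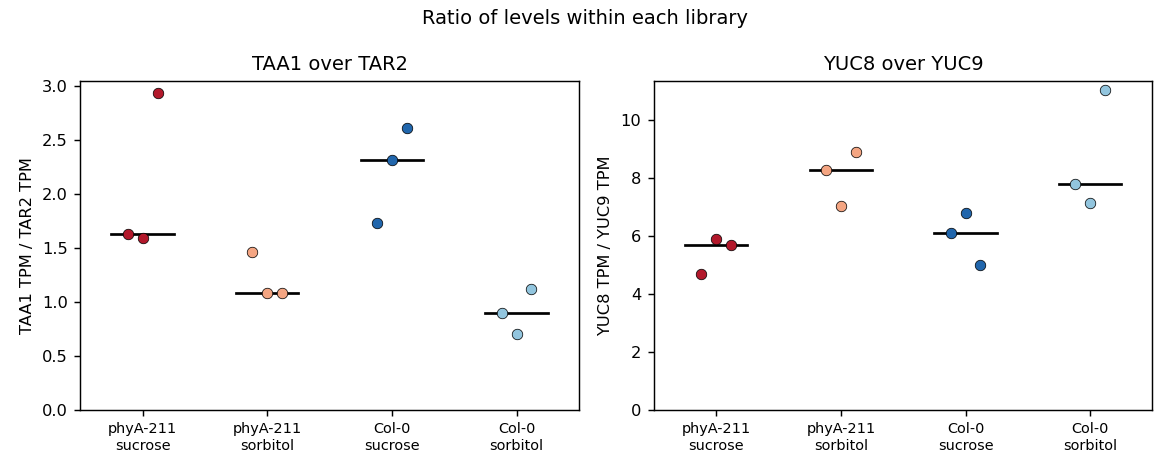
Ratio of TAA1 to TAR2 (left) and of YUC8 to YUC9 (right) in each library, each axis from 0. Points are libraries and lines the group medians of 3. The TAA1 to TAR2 ratio is higher, and the YUC8 to YUC9 ratio lower, in every sucrose library than in every sorbitol library of the same genotype.

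For the second step, YUC8 was higher in phyA-211 than in Col-0 when sucrose was present. It stood at 46.6, 51.4 and 50.8 TPM in sucrose-treated phyA-211, against 31.3, 31.3 and 27.8 TPM in Col-0 with sucrose. The genotypes were far apart, with the mutant mean at 164% of the Col-0 mean. The log2 change was 0.70 (SE 0.123, limma adjusted p = 0.00559). It kept this direction and stayed past the threshold under all 23 alternatives, between 0.58 and 0.74. YUC8 and YUC9 were the 2 of 8 members past the threshold here, both higher, where 7.4% of all genes passed, 4.15% higher and 3.25% lower. The root marker sum and the margin marker sum (2.34 to 3.16 TPM in phyA-211 with sucrose, 3.26 to 4.83 TPM in Col-0 with sucrose) were lower in the mutant without overlap. Without PYK10 the root sums overlapped, at 24.3 to 62.0 TPM in phyA-211 with sucrose and 39.1 to 60.4 TPM in Col-0 with sucrose. The leaf marker sums overlapped, but 2 of the 5 leaf markers were lower in the mutant without overlap: CA1 at 852 ± 345 TPM in phyA-211 and 1457 ± 131 TPM in Col-0 (limma adjusted p = 0.0754), and RCA at 2553 ± 934 TPM in phyA-211 and 4201 ± 314 TPM in Col-0 (limma adjusted p = 0.121). Their part was not tested.

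With sorbitol, YUC8 stood at 39.1, 53.9 and 41.7 TPM in phyA-211, against 38.1, 37.8 and 35.4 TPM in Col-0. These groups did not overlap either, but the change of 0.26 missed the threshold (SE 0.123, limma adjusted p = 0.38). The library at 53.9 TPM was the one with the highest root marker sum, and without it the change was 0.12. None of the 8 genes passed for phyA-211 against Col-0 with sorbitol, where 2.15% of all genes did, 0.775% higher and 1.38% lower. None had an unadjusted limma p under 0.05 there.

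The sucrose estimates for YUC8 had opposite signs in the genotypes, and neither passed the test. The log2 change was 0.15 in phyA-211 (interval -0.12 to 0.42, limma adjusted p = 0.375) and -0.29 in Col-0 (interval -0.56 to -0.02, limma adjusted p = 0.112). The phyA-211 sugar groups overlapped, whereas every Col-0 sucrose library lay below every Col-0 sorbitol library. The Col-0 change passed after median-ratio scaling (-0.39, limma adjusted p = 0.00696) and quantile normalization (-0.33, limma adjusted p = 0.0272), and without replicate 2 of phyA-211 with sorbitol (limma adjusted p = 0.0465). With library weights both sugar changes passed, at 0.26 in phyA-211 (limma adjusted p = 0.00739) and -0.27 in Col-0 (limma adjusted p = 0.0102). The difference between these changes, 0.44 (SE 0.173), had an unadjusted limma p of 0.0256 and an adjusted p of 0.999.

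YUC9 was highest in phyA-211 with sucrose. It stood there at 9.95, 8.72 and 8.90 TPM, against 4.72, 7.66 and 4.69 TPM in phyA-211 with sorbitol. The Col-0 values were 5.13, 4.6 and 5.57 TPM with sucrose and 4.88, 5.30 and 3.21 TPM with sorbitol. All 3 libraries of phyA-211 with sucrose exceeded the other 9. The sucrose change in phyA-211 was 0.63 (SE 0.197, limma adjusted p = 0.034) and the genotype change with sucrose was 0.74 (SE 0.197, limma adjusted p = 0.0427). Both were close to the threshold. The first was lost when replicate 1 or 3 of phyA-211 with sorbitol, or any 1 library of phyA-211 with sucrose, was left out (limma adjusted p up to 0.13). The second was lost without any 1 library of the groups compared, without Col-0 sorbitol replicate 1 or 2, and without phyA-211 sorbitol replicate 3 (limma adjusted p up to 0.163). Both were also lost with no filter on low values (limma adjusted p = 0.0523 for sucrose in phyA-211 and 0.0634 between genotypes). The direction held in each case.

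The other YUC9 comparisons did not pass. The sucrose estimate for YUC9 was 0.18 in Col-0 (interval -0.25 to 0.61), and the genotype estimate was 0.28 with sorbitol (-0.15 to 0.71). YUC8 divided by YUC9 was 4.68, 5.89 and 5.71 in phyA-211 with sucrose, against 8.29, 7.04 and 8.90 with sorbitol. In Col-0 it was 6.11, 6.81 and 5.0 with sucrose, against 7.80, 7.13 and 11.0 with sorbitol. Sucrose libraries lay below sorbitol libraries in both genotypes.

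YUC2, the second YUCCA transcript by abundance, did not pass in any comparison. It stood at 9.80, 9.41 and 8.81 TPM in sucrose-treated phyA-211 and at 7.91, 13.2 and 8.59 TPM in sorbitol-treated phyA-211. The Col-0 values were 8.17, 8.41 and 6.41 TPM with sucrose and 12.8, 9.96 and 7.16 TPM with sorbitol. The sorbitol groups were the more variable, with SDs of 2.88 TPM in phyA-211 and 2.83 TPM in Col-0. The genotypes did not overlap with sucrose, with a change of 0.26 (interval -0.20 to 0.73, limma adjusted p = 0.487).

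The 3 low YUCCA genes did not pass either, and the pseudocount of 1 shrinks fold changes at such levels. YUC6 stood at 2.09, 3.1 and 3.77 TPM in sucrose-treated phyA-211 and at 1.36, 2.36 and 2.36 TPM with sorbitol. The Col-0 values were 3.67, 2.67 and 2.88 TPM with sucrose and 1.87, 2.22 and 1.92 TPM with sorbitol. Its sucrose change was alike in size in phyA-211 (0.39, limma adjusted p = 0.174) and Col-0 (0.43, limma adjusted p = 0.157), and the groups overlapped in phyA-211 only.

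YUC3 stood at 1.90, 3.08 and 4.0 TPM in sucrose-treated phyA-211, against 1.90, 0.93 and 1.62 TPM in Col-0 with sucrose. These ranges touched at 1.90 TPM, and the change of 0.67 (interval 0.02 to 1.32) had a limma adjusted p of 0.194. With library weights it passed (0.90, limma adjusted p = 0.00228). With sorbitol it stood at 1.26, 3.96 and 2.31 TPM in phyA-211, against 1.5, 2.28 and 1.76 TPM in Col-0. YUC5 stood at 3.01, 2.43 and 5.43 TPM in sucrose-treated phyA-211, against 2.40, 2.24 and 2.38 TPM with sorbitol. The value of 5.43 TPM belongs to the library with the low leaf marker sum, and without it the sucrose change of 0.42 was 0.15. The Col-0 values of YUC5 were 2.20, 1.90 and 2.61 TPM with sucrose, against 2.06, 1.91 and 2.79 TPM with sorbitol.

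**Figure D3:**
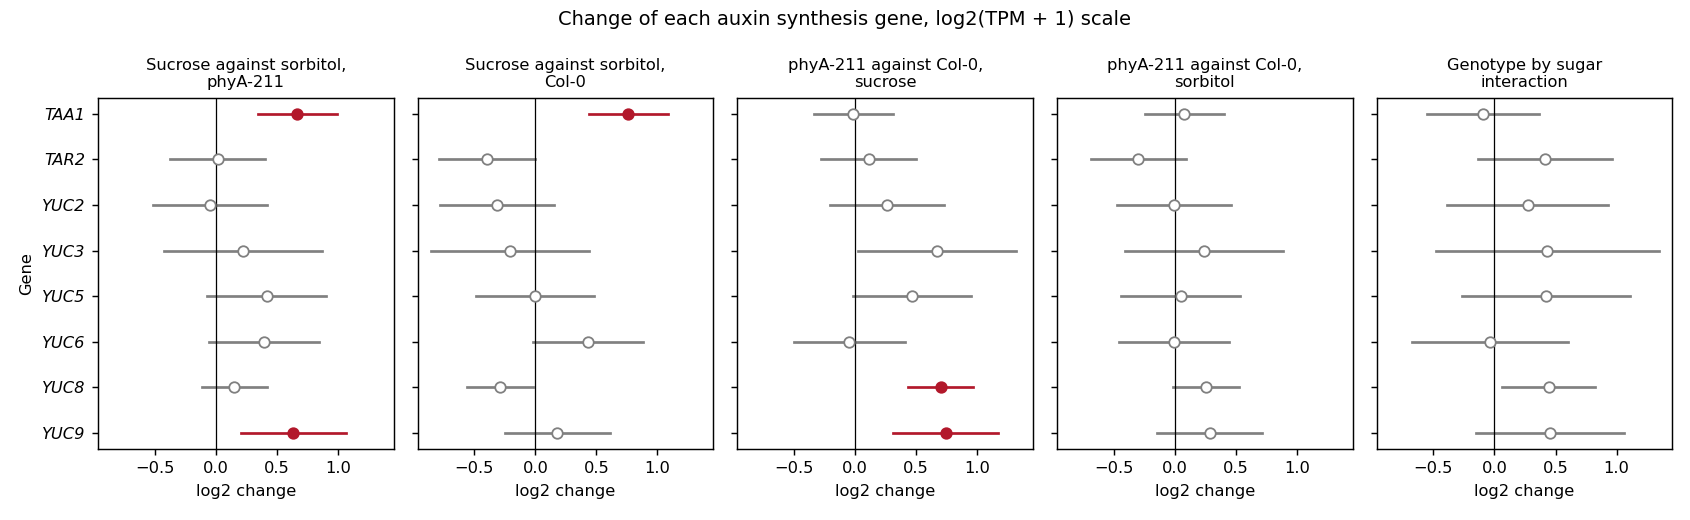
Log2 change on the log2(TPM + 1) scale (horizontal axis) of each of the 8 genes in 5 comparisons. Points are limma estimates, bars 95% intervals not adjusted for multiple testing, and filled red marks limma adjusted p under 0.05: TAA1 for sucrose in both genotypes, YUC9 for sucrose in phyA-211, and YUC8 and YUC9 between genotypes with sucrose.

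For sucrose in phyA-211, the libraries did not overlap for 3 of the 8 genes (TAA1, YUC5 and YUC9), as for 41.5% of all genes. For sucrose in Col-0 there were 3 (TAA1, YUC6 and YUC8), as for 42.6% of all genes. For the genotypes there were 3 with sucrose (YUC2, YUC8 and YUC9; 27.6% of all genes) and 1 with sorbitol (YUC8; 20.0%). An exact permutation test of 3 libraries against 3, 2-sided, gives each of these the smallest p it can reach, 0.1.

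No member passed the test of the genotype by sugar interaction, the sucrose change in the mutant less that in the wild type. By limma only 0.0101% of all genes did. YUC8 was the 1 of 8 with an unadjusted limma p under 0.05. The estimates were 0.41 for TAR2, 0.27 for YUC2, 0.43 for YUC3, 0.42 for YUC5, 0.44 for YUC8 and 0.46 for YUC9, and -0.09 for TAA1 and -0.04 for YUC6. Their median was 0.42, beside 0.04 over all genes, and the intervals of all except YUC8 included 0. With library weights TAR2, YUC8 and YUC9 passed, a count given without the share of all genes under that setting. These estimates share libraries.

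Some of the genes varied together across the 12 libraries, a description that mixes group differences with library differences. YUC8 and YUC3 had a Pearson r of 0.775, TAA1 and YUC6 0.738, and YUC8 and YUC9 0.699. TAA1 and TAR2 had an r of -0.532. With group means removed, r was 0.691 for YUC8 and YUC3, 0.249 for TAA1 and YUC6, and 0.612 for YUC8 and YUC9. Replicate 2 of phyA-211 with sorbitol held the highest TAR2, YUC2, YUC3, YUC8 and YUC9 values of its group. It shared the highest YUC6 value, 2.36 TPM, with replicate 3. Its factor under median-ratio scaling was 1.10, against 0.905 for replicate 1 and 0.972 for replicate 3.

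Among 14963 genes with a mean of at least 5 TPM, those most like each member across the 12 libraries were ranked by Pearson r of log2(TPM + 1), with no test. For TAA1 they were AT3G15080 (r = 0.987), GATA15, a GATA transcription factor (0.983), and AT4G38100 (0.983). For TAR2 they were HDA15, a histone deacetylase (0.905), AT1G58848 (0.897) and LpxC5 (0.859). For YUC2 they were AT4G22240 (0.95), P5CS1, which makes a proline precursor (0.921), and TRM20 (0.912). YUC8 was closest to SYP31, a syntaxin (0.968), AT3G45260 (0.967) and ARI2 (0.96). YUC9 was closest to AT5G23910 (0.958), AT5G65840 (0.939) and GH3.3, an enzyme that conjugates auxin to amino acids (0.937). YUC3 was closest to BZIP28 (0.943), IQD9 (0.939) and AT5G10190 (0.938). YUC5 was closest to CAM2, a calmodulin (0.936), BEE1, a brassinosteroid-induced bHLH factor (0.929), and BZIP60 (0.914). YUC6 was closest to AT2G38090 (0.963), PMEPCRA, a pectin methylesterase (0.955), and HA2, a plasma membrane proton pump (0.954).

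Upstream of TAA1 lie the genes of tryptophan synthesis. Of 11 tested, 4 rose and none fell with sucrose in phyA-211, where 16.9% of all genes rose and 10.5% fell, and 7 did not pass. In Col-0, 5 rose and none fell, where 12.1% of all genes rose and 9.95% fell, and 6 did not pass. The median log2 change of the list was 0.40 in phyA-211, beside 0.11 over all genes, and 0.46 in Col-0, beside 0.08. ASA2, an anthranilate synthase alpha subunit, averaged 32.5 ± 6.2 TPM with sucrose and 19.5 ± 3.70 TPM with sorbitol in phyA-211 (SD, n = 3 each). Its Col-0 means were 31.3 ± 5.26 TPM with sucrose and 18.6 ± 3.61 TPM with sorbitol. TSA1, the tryptophan synthase alpha subunit, averaged 88.7 ± 18.8 TPM with sucrose and 54.3 ± 9.14 TPM with sorbitol in phyA-211, and 79.8 ± 1.25 TPM with sucrose and 45.0 ± 9.39 TPM with sorbitol in Col-0. IGPS (AT2G04400), indole-3-glycerol phosphate synthase, rose in phyA-211 (0.61, limma adjusted p = 0.0285). In Col-0 IGPS averaged 45.5 ± 4.1 TPM with sucrose and 32.7 ± 6.11 TPM with sorbitol. ASB1, an anthranilate synthase beta subunit, rose in Col-0 (0.81, limma adjusted p = 0.00792). In phyA-211 ASB1 averaged 30.0 ± 7.46 TPM with sucrose and 20.5 ± 0.787 TPM with sorbitol. Over 23 alternative settings, the count of genes that rose ran from 0 to 9 in phyA-211 and from 2 to 7 in Col-0, and none fell. Here and for the lists below, counts over the alternatives lack the share of all genes that passed under each setting. None of the 11 passed by limma between genotypes; 1 had an unadjusted p under 0.05 with sorbitol and 0 with sucrose. Reads of PAI1, PAI2 and PAI3, and of TSB1 and TSB2, may be split between near-identical copies.

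The next list covers the branches through indole-3-acetaldoxime, nitriles and amides. Of its 6 genes, 2 fell and none rose with sucrose in phyA-211 (10.5% and 16.9% of all genes), and 3 rose and 2 fell in Col-0 (12.1% and 9.95% of all genes). CYP79B2, which converts tryptophan to indole-3-acetaldoxime, averaged 46.5 ± 4.58 TPM with sucrose and 10.0 ± 6.12 TPM with sorbitol in Col-0 (log2 change 2.28, limma adjusted p = 0.00577). In phyA-211 it averaged 30.7 ± 11.3 TPM with sucrose and 13.4 ± 8.48 TPM with sorbitol and missed the threshold. CYP79B3, which has the same activity, rose in Col-0 (1.58, limma adjusted p = 0.0157). NIT2, a nitrilase, fell in both genotypes, to 6.12 ± 2.61 TPM with sucrose, against 43.7 ± 9.70 TPM with sorbitol, in phyA-211 (limma adjusted p = 0.00121), and to 5.90 ± 1.34 TPM, against 29.3 ± 7.11 TPM, in Col-0 (limma adjusted p = 0.00109). AMI1, an amidase, fell in phyA-211 (-0.67, limma adjusted p = 0.0315). It also fell in Col-0, where it averaged 64.6 ± 6.94 TPM with sucrose and 99.9 ± 8.38 TPM with sorbitol. Over the alternatives the counts ran from 0 to 4 up and 1 to 2 down in phyA-211, and from 1 to 3 up and 1 to 2 down in Col-0. The nitrilases NIT1, NIT2 and NIT3 are close copies whose reads may be split.

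Of 15 tested genes of auxin inactivation and release (17 listed), 1 rose for sucrose in phyA-211, where 27.5% of all genes passed, and 2 fell in Col-0, where 22.1% passed. For phyA-211 against Col-0, 3 rose and 1 fell with sucrose (4.15% and 3.25% of all genes), and 1 rose and 1 fell with sorbitol (0.775% and 1.38% of all genes). Over the alternatives for sucrose, 0 to 1 rose and 0 to 3 fell in phyA-211, and 0 rose and 1 to 5 fell in Col-0. Between genotypes 2 to 12 rose and 0 to 2 fell with sucrose, and 0 to 8 rose and 0 to 2 fell with sorbitol. Without the share of all genes under each setting, the upper counts cannot be set against a background. GH3.5, an enzyme of the same family as GH3.3, averaged 90.9 ± 7.83 TPM in phyA-211 with sucrose and 42.0 ± 8.16 TPM in Col-0 with sucrose (SD, n = 3 each; log2 change 1.11, limma adjusted p = 0.00528). It fell with sucrose in Col-0 (-0.88, limma adjusted p = 0.00814), as it did IAMT1, which methylates auxin (-0.95, limma adjusted p = 0.0452). GH3.3 was higher in phyA-211 than in Col-0 with sucrose (1.68, limma adjusted p = 0.00237) and with sorbitol (1.10, limma adjusted p = 0.0493), and rose with sucrose in phyA-211 (1.07, limma adjusted p = 0.0117). UGT74D1, an auxin glucosyltransferase, was lower in phyA-211, at 53.5 ± 1.70 TPM against 86.2 ± 13.6 TPM in Col-0 with sucrose and at 54.1 ± 5.32 TPM against 86.2 ± 6.99 TPM in Col-0 with sorbitol.

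Counts for the auxin transport and receptor genes are set beside the share of all genes. Of 13 transport genes tested (14 listed), none passed by limma for sucrose in phyA-211, where 27.5% of all genes did. There 6 of the 13 had an unadjusted p under 0.05. In Col-0, 2 rose and none fell, where 12.1% of all genes rose and 9.95% fell. Among them was PIN5, a carrier of the endoplasmic reticulum (0.76, limma adjusted p = 0.0324). For phyA-211 against Col-0 with sucrose, 1 rose and 1 fell, where 4.15% of all genes rose and 3.25% fell. With sucrose, PIN5 was lower in phyA-211 (0.52 ± 0.381 TPM) than in Col-0 (2.63 ± 0.201 TPM; limma adjusted p = 0.00583), and PIN7 was higher (181 ± 4.74 TPM against 122 ± 12.2 TPM; limma adjusted p = 0.00968). No transport gene passed by limma between genotypes with sorbitol, where 2.15% of all genes passed and 4 of the 13 had an unadjusted p under 0.05. The number that rose ran from 0 to 10 over the alternatives for sucrose in phyA-211 and from 0 to 4 in Col-0. None of the 6 receptor genes passed in any comparison by limma. Of all genes, 27.5% passed for sucrose in phyA-211 and 22.1% in Col-0, and 7.4% between genotypes with sucrose and 2.15% with sorbitol. Among the receptor genes, 1 had an unadjusted p under 0.05 for sucrose in phyA-211 and 1 between genotypes with sucrose. Over the alternatives, up to 2 receptor genes rose for sucrose in phyA-211, up to 2 fell in Col-0, up to 2 rose between genotypes with sucrose and up to 1 fell with sorbitol.

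Of 12 early response genes of the Aux/IAA family, which encode repressors induced by auxin, 2 rose and 4 fell with sucrose in phyA-211, and 2 rose and 5 fell in Col-0. Of all genes, 27.5% passed in phyA-211 and 22.1% in Col-0. For phyA-211 against Col-0, 3 rose and 1 fell with sucrose, where 7.4% of all genes passed, and 3 rose and none fell with sorbitol, where 2.15% passed. Over the alternatives for sucrose, 0 to 2 rose and 1 to 7 fell in phyA-211, and 1 to 4 rose and 2 to 5 fell in Col-0. Between genotypes 2 to 8 rose and 0 to 1 fell with sucrose, and 1 to 8 rose and 0 to 1 fell with sorbitol. IAA29 averaged 69.3 ± 2.33 TPM in phyA-211 and 33.2 ± 2.58 TPM in Col-0 with sucrose (log2 change 1.04, limma adjusted p = 7.78e-05). With sorbitol it averaged 78.6 ± 1.76 TPM in phyA-211 and 41.1 ± 1.76 TPM in Col-0 (0.92, limma adjusted p = 0.000434). IAA2 was higher in phyA-211 with sucrose, at 504 ± 24.6 TPM against 281 ± 22.2 TPM in Col-0 (limma adjusted p = 0.00294), and IAA14 was lower (-0.92, limma adjusted p = 0.0122). IAA5 and IAA19 were higher in phyA-211 with sorbitol (1.21 and 0.64, limma adjusted p = 0.00708 and 0.0364). With sucrose, IAA4 fell in phyA-211 (-0.58, limma adjusted p = 0.0184) and Col-0 (-0.91, limma adjusted p = 0.00275), and IAA16 fell in phyA-211 (-0.47, limma adjusted p = 0.0102). No sucrose change is given for the genes that rose, 2 in phyA-211 and 2 in Col-0.

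Of 9 shade regulators, 2 rose and 1 fell for phyA-211 against Col-0 with sucrose, where 7.4% of all genes passed, and none rose and 2 fell with sorbitol, where 2.15% passed. For sucrose, 1 rose and 1 fell in phyA-211 (27.5% of all genes passed) and none rose and 2 fell in Col-0 (22.1%). Over the alternatives between genotypes, 1 to 3 rose and 0 to 2 fell with sucrose, and 0 to 2 rose and 0 to 4 fell with sorbitol. For sucrose, 1 to 3 rose and 0 to 2 fell in phyA-211, and 0 to 1 rose and 1 to 5 fell in Col-0. PIF4 averaged 34.9 ± 4.74 TPM in phyA-211 and 54.1 ± 6.54 TPM in Col-0 with sucrose (limma adjusted p = 0.0379), and 38.1 ± 6.60 TPM in phyA-211 and 67.1 ± 10.1 TPM in Col-0 with sorbitol (limma adjusted p = 0.0233). PIF7 was lower in the mutant with sorbitol, at 5.12 ± 1.34 TPM in phyA-211, against 12.4 ± 2.65 TPM in Col-0 (limma adjusted p = 0.0332). ATHB2, a shade-induced homeobox gene, was higher in the mutant with sucrose, at 165 ± 27.1 TPM in phyA-211 against 70.0 ± 1.37 TPM in Col-0 (limma adjusted p = 0.000444), and so was PIF3 (0.79, limma adjusted p = 0.00655). For sucrose, PIF5 fell in phyA-211 (-0.40, limma adjusted p = 0.0337) and Col-0 (-0.48, limma adjusted p = 0.0181), PIF3 fell in Col-0 (-0.71, limma adjusted p = 0.00552), and PIL1 rose in phyA-211 (1.20, limma adjusted p = 0.0064).

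**Figure D4:**
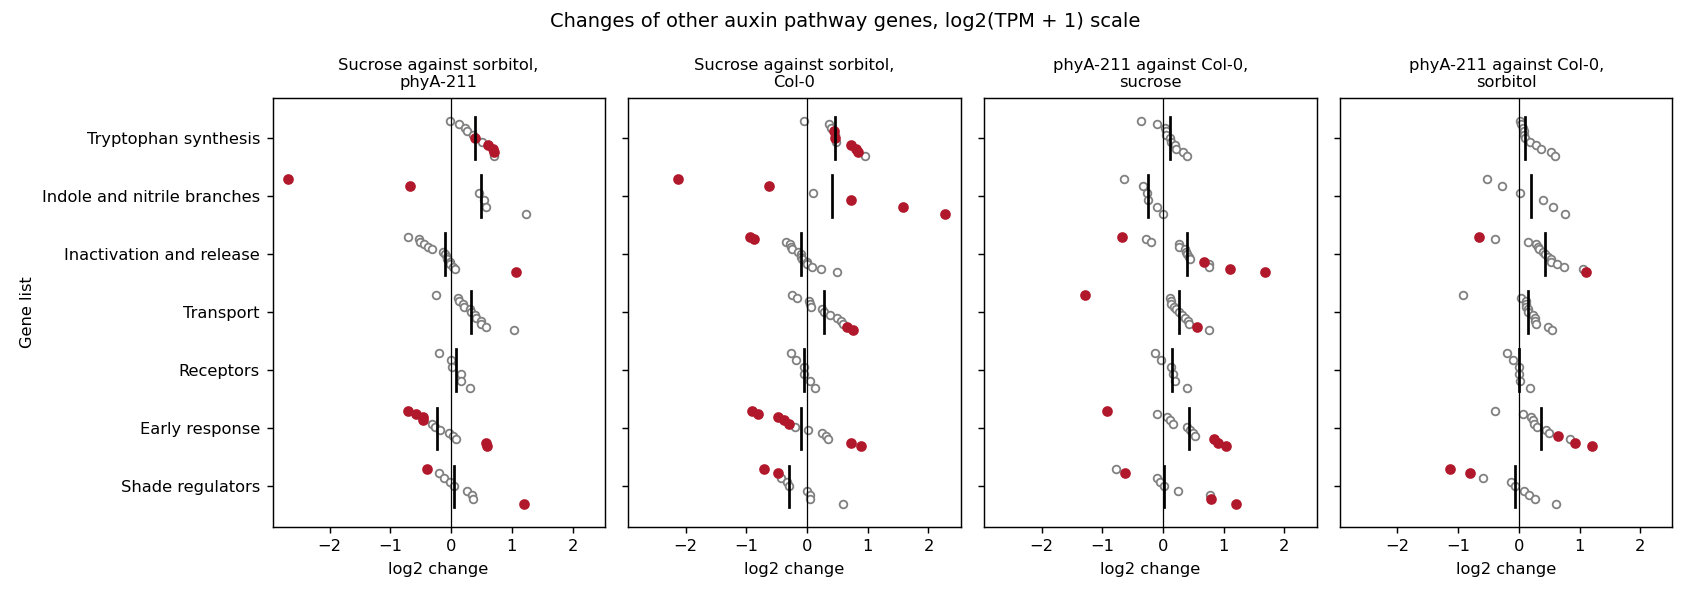
Log2 change on the log2(TPM + 1) scale (horizontal axis) of the tested genes of 7 other lists, of auxin genes and of shade regulators, in 4 comparisons. Each point is a gene, filled red marks limma adjusted p under 0.05, and black lines are list medians. Tryptophan synthesis genes lie mostly right of 0 for sucrose. Genes of the inactivation and release list, and early response genes, lie mostly right of 0 for phyA-211 against Col-0.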

How the data were processed

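Leaf-portion mRNA of 12 libraries was measured, 3 in each of 4 groups taken from the labels. The deposited TPM values (1 column per library) were made by the authors; per the submitters' processing notes fastp, cutadapt, HISAT2, DESeq2 and TAIR10 were used, with no versions or roles, and the program that computed TPM is not given in the sources used here. TPM keeps no read depth, so no counting error can be given, and the scale to a fixed total means that a large change in a few abundant transcripts shifts all others.

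The values were taken as log2(TPM + 1). Genes with at least 1 TPM in at least 3 libraries (19862 of 32833) were fitted with limma 3.58.1 in R 4.3.3, with 4 group means, a mean-variance trend and all 12 libraries (8 residual degrees of freedom and 3.68 prior ones). P-values were adjusted by Benjamini-Hochberg over all genes tested in each of 5 comparisons, with a threshold of 0.05. The fit was tested on simulated data with 200 changed genes. Overlap used exact permutation tests (scipy 1.17.1). Members and gene lists were chosen with earlier results of these data known. All 8 members were reported. Of the other lists, named genes were taken from the up to 3 with the smallest adjusted p in each comparison. Not every such gene was named for its comparison. Added after their values were seen were IAA4 in phyA-211, AMI1, ASA2 and IGPS in Col-0, and ASB1 in phyA-211. Alternatives covered pseudocounts, filters, scaling, the libraries fitted, library weights, a replicate block and leaving out libraries. The counts for the other lists under these alternatives were added after seeing the data, and are given without the share of all genes. The values of 1 transport gene that this rule names are not reported here.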

Additional observations from a re-analysis of the deposited data

How the results depend on the processing

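The 5 called changes kept their sign in all 115 values under the alternatives, and 19 of these missed the threshold (limma adjusted p of 0.05), 18 of them for YUC9. TAA1 ranged from 0.67 to 0.83 for sucrose in Col-0 and from 0.48 to 0.76 in phyA-211, where it missed the threshold only when the compared groups were fitted alone. YUC8 ranged from 0.58 to 0.74 between genotypes with sucrose and passed throughout. With no filter on low values, 1 of the 8 genes passed for sucrose in phyA-211 and 1 between genotypes with sucrose. For sucrose in Col-0, 3 passed with median-ratio scaling, 3 with quantile normalization and 3 with library weights. In the groups compared alone, 0 passed for sucrose in phyA-211, although 2 did in the fit of all libraries. Library weights also gave 3 for sucrose in phyA-211 (YUC8 added), 3 between genotypes with sucrose (YUC3 added), 1 with sorbitol (TAR2) and 3 for the interaction (TAR2, YUC8 and YUC9). Leaving out 1 library at a time gave 1 to 2 genes for sucrose in Col-0, 1 to 2 in phyA-211 and 1 to 2 between genotypes with sucrose, and 0 with sorbitol and for the interaction. With phyA-211 sorbitol replicate 2 and phyA-211 sucrose replicate 3 both left out, an alternative chosen after seeing the data, 2 passed for sucrose in Col-0. These counts are given without the share of all genes that passed under each setting. The cause of these shifts was not tested. Deviations of same-numbered libraries from their group means had correlations of -0.268 to 0.31. Differently numbered libraries were not compared, so whether the numbers pair the samples cannot be told. With a replicate block, 1 gene passed for sucrose in Col-0 and 2 in phyA-211. Between genotypes 0 passed with sorbitol and 1 with sucrose (YUC9 lost, limma adjusted p = 0.0565), and 0 passed for the interaction. Of 782 values of members that missed the threshold, 39 had the other sign, 0 of them past the threshold, and 14 passed. Relative to the deposited scale, the median over all genes tested moved under median-ratio scaling by -0.0915 for sucrose in Col-0, -0.131 in phyA-211, -0.0668 between genotypes with sorbitol and -0.108 with sucrose. Depth is unknown for TPM, so the precision of YUC3, YUC5 and YUC6 rests on the spread between libraries, 3 per group. In the fit this spread was estimated from all 12 libraries, with 3.68 prior degrees of freedom.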
